A study of Mus musculus with 4 samples.

Results

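The 8 chemokine receptors described here are Ccr1, Ccr2, Ccr6, Ccr7, Cxcr2, Cxcr3, Cxcr4 and Cx3cr1, measured in Rbpj-deficient and control dendritic cells grown from mouse bone marrow. They were chosen by name, with earlier results of these data known. Every probe for a gene whose accession maps to a listed symbol was taken. That gave 9 of the 39429 probes, of which 8 were bright enough to be tested, 1 for each receptor among the 17974 genes tested. The Rbpj-deficient cells (BMDC_RFF11, 2 arrays) carried Rbpj fl/fl alleles, with loxP sites around part of the gene, and CD11c-cre, a recombinase driven from the promoter of Itgax. The control cells (BMDC_RFF, 2 arrays) carried the same Rbpj fl/fl alleles without the cre, so that loss of Rbpj and presence of the cre cannot be told apart. Both genotypes came from female C57BL/6 mice 8 weeks old, whose marrow was grown for 6 days in GM-CSF at 20 ng/mL before CD11c+ cells were taken. Each genotype was a pool of 4 mice. Whether its 2 arrays hold separate pools is not stated, so p-values reflect the array-to-array spread alone, which may be technical.

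Chemokine receptors are membrane proteins that couple to inhibitory G proteins and steer cells along gradients of small secreted proteins, the chemokines. Immature dendritic cells and their precursors use inflammatory receptors such as CCR1, CCR2 and CCR6 to enter tissues, and maturing dendritic cells display CCR7, which takes them through lymph vessels to lymph nodes. RBPJ binds DNA and carries signals of the Notch receptors to their target genes.

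As RBPJ binds DNA, the promoters of the receptors were read for its motif. RefSeq promoter sequences (GRCm38.p6, 250 bases before to 50 after a start) matched 7 of the 8 receptors, all but Ccr7, with 8 entries. The motif GTGGGAA or its reverse complement TTCCCAC was in 0 of these 8 entries, against 6.38% of all 32851 promoters. Its shorter core TGGGAA or TTCCCA, which the longer motif contains, was in 4 of the 8 entries, against 25.6% of all. The cores lay 220 bases before the start of Cxcr2, 114 before that of Cx3cr1, 75 before the second listed start of Ccr6 and 5 after that of Cxcr3. A match of letters describes the window and is not a measured binding site, and no match says only that these letters are not in it. The 250 bases upstream are shown for Ccr2 and Cxcr2, the receptors with the lowest and the highest log2 difference between genotypes, and for the second start of Ccr6, the receptor with the smallest p, with the core in capitals.
Ccr2 (chr9:124101933-124102182, + strand): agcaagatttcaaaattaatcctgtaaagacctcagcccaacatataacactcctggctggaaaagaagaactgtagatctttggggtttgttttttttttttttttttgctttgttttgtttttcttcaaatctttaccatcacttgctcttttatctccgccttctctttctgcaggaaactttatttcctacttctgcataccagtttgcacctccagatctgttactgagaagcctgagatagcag
Cxcr2 (chr1:74153744-74153993, + strand): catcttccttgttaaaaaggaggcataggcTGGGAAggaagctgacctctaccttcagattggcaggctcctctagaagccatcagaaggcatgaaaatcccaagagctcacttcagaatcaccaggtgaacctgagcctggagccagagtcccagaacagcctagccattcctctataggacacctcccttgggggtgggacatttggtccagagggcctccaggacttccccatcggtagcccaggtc
Ccr6 (chr17:8242276-8242525, + strand): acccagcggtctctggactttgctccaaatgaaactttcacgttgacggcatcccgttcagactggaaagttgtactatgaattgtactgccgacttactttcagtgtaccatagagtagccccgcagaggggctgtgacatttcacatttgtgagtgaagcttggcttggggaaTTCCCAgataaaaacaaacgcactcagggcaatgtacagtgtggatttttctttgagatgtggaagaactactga
The Ccr2 stretch holds no core, while those of Cxcr2 and of the second start of Ccr6 hold 1 each. The first listed start of Ccr6, not shown, has no core in its window.

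Of 43020 spots for genes, 58.4% and 57.7% were well above background on the Rbpj-deficient arrays and 55.2% and 58.1% on the control arrays. Levels are log2 signal minus the 75th percentile of the array, so that a level of 0 equals that percentile. Levels of different probes are not read as relative amounts of RNA. The signals of some marker lists are summed all the same, with the brightest probes named. Rbpj read 1.37 and 1.44 in Rbpj-deficient cells and 2.69 and 2.61 in control cells, which is 42.1% of the control signal (limma log2 change -1.25, SE 0.06, adjusted p = 0.0278). With any 1 array left out its log2 change was -1.29 to -1.21. Such fits leave 1 array in a genotype and call almost no gene. Rbpj did not pass in them, which says little of Rbpj itself. Of the dendritic cell markers, Itgax (CD11c) read 6.65 and 6.45 in Rbpj-deficient cells and 6.69 and 6.63 in control cells. Flt3, H2-Ab1, Cd74 and Ciita were also well above background on all 4 arrays. None of these 5 passed the test, but they did not all go the same way. Flt3 stood at 0.38 and Ciita at 0.41 on the log2 scale (limma adjusted p = 0.0640 and 0.0890), both without overlap of the genotypes. Itgax stood at -0.11, H2-Ab1 at -0.07 and Cd74 at -0.1. Zbtb46 was not analysed here.

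None of the 8 receptors passed the threshold of an adjusted p of 0.05 in limma, where 1.88% of all genes tested passed. At an unadjusted p under 0.05, 5 of the 8 did, against 24.1% of all genes. The 2 genotypes did not overlap for 6 of the 8, against 59.1% of all genes. One of these 6, Cx3cr1, entered the test through the Rbpj-deficient arrays alone and was dim. Its other probe, of opposite sign, was not well above background on any array. No direction is read for Cx3cr1. Over the 7 receptors well above background on all 4 arrays, a set chosen after seeing the data, 5 did not overlap. Ccr2, Ccr7 and Ccr6 lay below control and Cxcr2 and Ccr1 above it on both arrays, while Cxcr3 and Cxcr4 overlapped. The median log2 difference of the 7 was -0.03, beside -0.01 over all genes, and 4 of the 7 lay below 0, against 52.7% of all genes. With Cx3cr1 included the median was 0.04. Without regard to sign, the median difference was 0.32 for the 7 and 0.4 for the 8, beside 0.12 over all genes, which was not tested. As the receptors were listed with earlier results of these data known, these comparisons with all genes are not independent of the data. With 2 arrays a genotype, an exact permutation test of a single receptor cannot give a two-sided p below 0.333, so no such test was run. In these bulk samples, fewer cells that carry a receptor and less of its RNA per cell cannot be told apart.

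**Figure D1:**
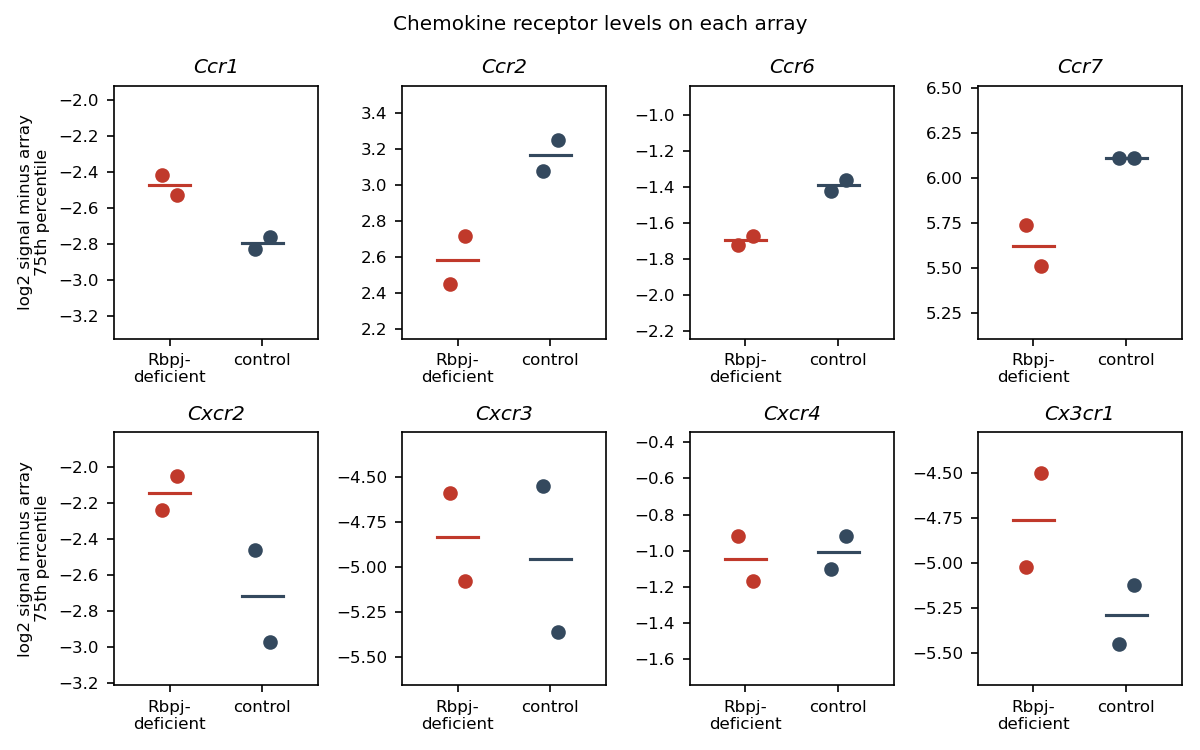
Level of each chemokine receptor (log2 signal minus the 75th percentile of the array) on the 2 Rbpj-deficient arrays and the 2 control arrays. Points are arrays, lines are means, and every panel spans the same length of log2 scale around its own values. Ccr2, Ccr6 and Ccr7 lie lower and Ccr1, Cxcr2 and the brighter probe of Cx3cr1 higher on both Rbpj-deficient arrays than on either control array, while Cxcr3 and Cxcr4 overlap.

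Ccr2, the receptor for Ccl2 that brings monocytes out of the marrow, was strongly detected. It read 2.45 and 2.72 in Rbpj-deficient cells and 3.08 and 3.25 in control cells, which are processed signals of 7856 and 9547 against 11580 and 13510. Both Rbpj-deficient arrays lay below both control arrays, with a gap of 0.36 between the groups. The log2 difference was -0.58 (SE 0.12, 95% interval -0.92 to -0.23, limma adjusted p = 0.101), or 67.0% of control with an interval of 52.8% to 85.0%. These intervals are from the fit of the single gene and are not adjusted for the number of genes. Ccr2 ranked 1681 by p among all genes tested. It passed with the normexp background (log2 change -0.63, adjusted p = 0.0464) and with a variance prior that follows signal and is robust to outlying genes (-0.58, adjusted p = 0.0411). The adjusted p ran from 0.0411 to 0.370 over all 13 alternatives.

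Ccr1, which binds Ccl3, Ccl5 and related chemokines, read -2.42 and -2.53 in Rbpj-deficient cells and -2.83 and -2.76 in control cells. The genotypes did not overlap, and the Rbpj-deficient arrays were the higher. Rbpj-deficient minus control gave 0.32 on the log2 scale (SE 0.07, 95% interval 0.13 to 0.52, limma adjusted p = 0.104), or 125% of control with an interval of 109% to 143%. Monocyte and macrophage markers stood beside these receptors as follows. Of 6 tested, 1 passed, against 1.88% of all genes tested. This was the Fc receptor Fcgr1, which fell by 0.61 on the log2 scale (adjusted p = 0.0424). The other 5 markers did not pass, among them Csf1r at 0.04 and Adgre1 at 0.34. The summed signal of the 6, in units of the 75th percentile of each array, was 196 and 192 in Rbpj-deficient cells and 189 and 190 in control cells. Such a sum mostly follows the probes with the highest signal, here Csf1r, and 4 of the 6 markers lay below 0. Fcgr1 stood at -0.66 to -0.56 in the fits without 1 array, where it did not pass and almost no gene does. The part of monocytes and macrophages in the values of Ccr1 and Ccr2 was not tested.

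Ccr6, the receptor for Ccl20 on immature dendritic cells and some lymphocytes, read -1.72 and -1.67 in Rbpj-deficient cells and -1.42 and -1.36 in control cells. Its arrays agreed closely within each genotype, with an SD of 0.04 in both, and the genotypes lay 0.25 apart. The genotypes differed by -0.31 on the log2 scale (SE 0.06, 95% interval -0.47 to -0.15, limma adjusted p = 0.0851), or 80.7% of control. Its p of 0.00622 was the smallest of the 8, while the largest p among genes that passed was 0.000933. Its difference stayed between -0.34 and -0.28 over the 13 alternatives, with an adjusted p of 0.0543 to 0.377. Over the 4 arrays, after each gene was centred on its own mean, the named genes nearest to Ccr6 among 12292 compared were Clcn5, an endosomal chloride transporter, with a root mean square distance of 0.00888, and Tmcc1, a membrane protein of the endoplasmic reticulum, with 0.00959. Clcn5 read -2.35 and -2.32 in Rbpj-deficient cells and -2.05 and -1.99 in control cells. Tmcc1 read -0.15 and -0.12 in Rbpj-deficient cells and 0.15 and 0.21 in control cells. Each had a log2 difference of -0.32, and neither passed the test (adjusted p = 0.0802 and 0.0803).

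Ccr7, the receptor for Ccl19 and Ccl21 that guides mature dendritic cells to lymph nodes, gave processed signals of 77180 and 65780 in Rbpj-deficient cells and 94590 and 98280 in control cells. Its levels were 5.74 and 5.51 in Rbpj-deficient cells and 6.11 on both control arrays. Both Rbpj-deficient arrays lay below the control arrays, by at least 0.36. The log2 difference was -0.48 (SE 0.10, 95% interval -0.76 to -0.21, limma adjusted p = 0.0931), or 71.5% of control with an interval of 59.2% to 86.3%. With the variance prior that follows signal and is robust, Ccr7 passed (adjusted p = 0.0291), and over all 13 alternatives its adjusted p ran to 0.368. Leaving out Rbpj-deficient replicate 2 gave -0.37 and leaving out replicate 1 gave -0.60.

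Markers of mature migratory dendritic cells are given beside Ccr7. Of 7 tested, 1 passed, against 1.88% of all genes tested. This was Il4i1, an amino acid oxidase of mature cells, which fell by 0.64 on the log2 scale (limma adjusted p = 0.0379). None rose past the threshold and 6 did not pass, although 6 of the 7 lay below 0. The median of the 7 was -0.34, beside -0.01 over all genes. Among those that did not pass, the chemokine Ccl22 stood at -0.78 (adjusted p = 0.0507), the actin-bundling Fscn1 at -0.34 and the costimulatory Cd40 at 0.09. The summed signal of the 7 was 261.3 and 254.5 in Rbpj-deficient cells and 333.2 and 331.3 in control cells. Ccl17, the brightest of the 7 (log2 difference -0.28), weighs most in that sum. Il4i1 stood at -0.65 to -0.63 in the fits without 1 array, where it did not pass and almost no gene does. The part of mature cells in the value of Ccr7 was not tested.

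**Figure D2:**
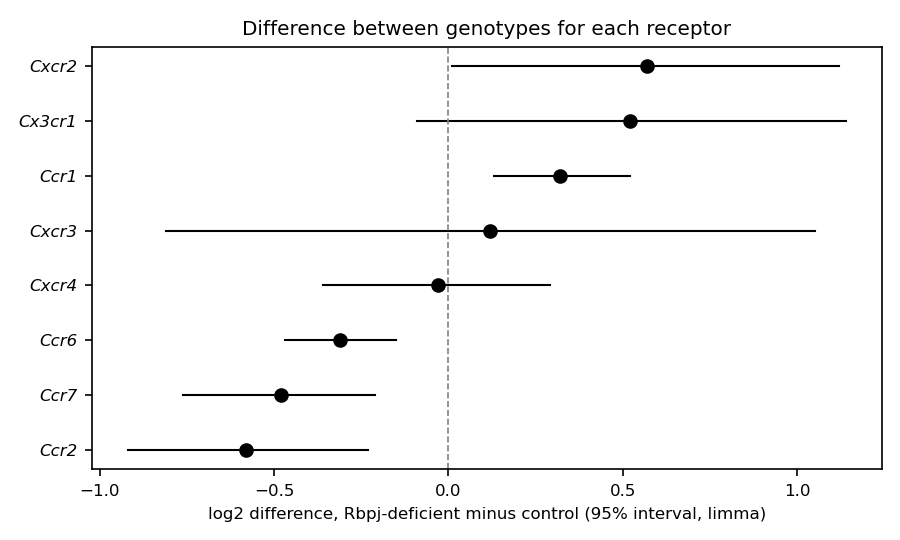
Log2 difference between Rbpj-deficient and control cells for each receptor, with the 95% interval of the limma fit of that gene, ordered from highest to lowest. The intervals of Ccr2, Ccr7, Ccr6, Ccr1 and Cxcr2 leave out 0 before adjustment for the number of genes, and no receptor passed after it.

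Cxcr2, the receptor for Cxcl1 and Cxcl2 that is best known from neutrophils, read -2.24 and -2.05 in Rbpj-deficient cells and -2.46 and -2.97 in control cells. Both Rbpj-deficient arrays lay above the control arrays, with a gap of 0.21 between genotypes, which is smaller than the control SD of 0.36. The log2 difference was 0.57 (SE 0.20, 95% interval 0.01 to 1.12, limma adjusted p = 0.201), or 148% of control with an interval of 101% to 218%. It was 0.83 without control replicate 1 and 0.31 without control replicate 2. Of 8 neutrophil markers tested 2 passed, against 1.88% of all genes tested. Ngp (log2 change 0.54, adjusted p = 0.0445) and Mpo (0.74, adjusted p = 0.0378), both granule proteins, rose. None fell past the threshold and 6 did not pass. Of those 6, S100a8 stood at 0.83 and S100a9 at 0.85, and Elane at -0.14. The median of the 8 was 0.67, beside -0.01 over all genes. The summed signal of the 8 was 78.7 and 70.4 in Rbpj-deficient cells and 53.8 and 51.5 in control cells. The brightest of the 8, Csf3r (log2 difference 0.22) and S100a9, weigh most in that sum. Retnlg, a marker of mature neutrophils, was not well above background on any array. In the fits without 1 array Ngp stood at 0.50 to 0.57 and Mpo at 0.71 to 0.78. Neither passed there, where almost no gene does. Ngp did not pass under median scaling either (0.51, limma adjusted p = 0.0579), and Mpo was 0.45 with the normexp background, where it passed. The part of neutrophils in the value of Cxcr2 was not tested.

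Cxcr3, the receptor for Cxcl9 and Cxcl10 on activated T cells and natural killer cells, was dim, with processed signals of 59.9 and 42.7 in Rbpj-deficient cells and 58.3 and 34.7 in control cells. The error that the scanner software gave for these signals was 8.52 and 8.26 in Rbpj-deficient cells and 10.2 and 7.21 in control cells. The levels, -4.59 and -5.08 in Rbpj-deficient cells and -4.55 and -5.36 in control cells, overlapped fully. Between the means the log2 difference was 0.12 (SE 0.34, 95% interval -0.81 to 1.05, limma adjusted p = 0.849), an interval that reaches from 57.2% to 207% of control. A difference was not detectable with these arrays, and its direction turned without control replicate 2 (-0.28) or Rbpj-deficient replicate 1 (-0.13). Of 5 T and natural killer cell markers tested none passed, with Cd3g at 1.40 (adjusted p = 0.104) and Nkg7 at -0.21, a median of 0.30 (-0.13 with no filter on dim probes) and a summed signal of 4.10 and 4.14 in Rbpj-deficient cells and 4.68 and 4.37 in control cells. Nkg7, the brightest of the 5, weighs most in that sum. Cd8b1 and Ncr1 were not well above background on any array. Of the B cell markers only Cd79b was tested (0.57, adjusted p = 0.0932), and Ms4a1 was not well above background on any array.

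Cxcr4, the receptor for Cxcl12 that holds precursors in the marrow, read -0.92 and -1.17 in Rbpj-deficient cells and -1.10 and -0.92 in control cells. The genotypes overlapped. Their means differed by -0.03 on the log2 scale (SE 0.12, 95% interval -0.36 to 0.29, limma adjusted p = 0.882), or 97.7% of control with an interval of 77.9% to 122%. Its sign changed without control replicate 2 (0.05), without Rbpj-deficient replicate 2 (0.09) and with the normexp background (0.01).

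Cx3cr1, the receptor for the membrane-bound chemokine fractalkine on monocytes and macrophages, had 2 probes, both dim. The brighter read -5.02 and -4.50 in Rbpj-deficient cells and -5.45 and -5.12 in control cells, and it was well above background on 2 of 2 Rbpj-deficient arrays and 1 of 2 control arrays. Its processed signals were 44.2 and 63.8 in Rbpj-deficient cells and 31.3 and 40.9 in control cells. The groups did not overlap, with a gap of 0.10. The log2 difference was 0.52 (SE 0.22, 95% interval -0.09 to 1.14, limma adjusted p = 0.257). It entered the test through the Rbpj-deficient arrays alone. Leaving out replicate 2 of these gave 0.26, leaving out replicate 1 gave 0.79, and the normexp background gave 0.11. The other probe was not well above background on any array. It read -7.39 and -6.56 in Rbpj-deficient cells and -6.69 and -5.79 in control cells, and its difference of -0.74, which was not tested, has the opposite sign. The probes of Cx3cr1 therefore disagreed in sign, and each of the other 7 receptors had a single probe.

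**Figure D3:**
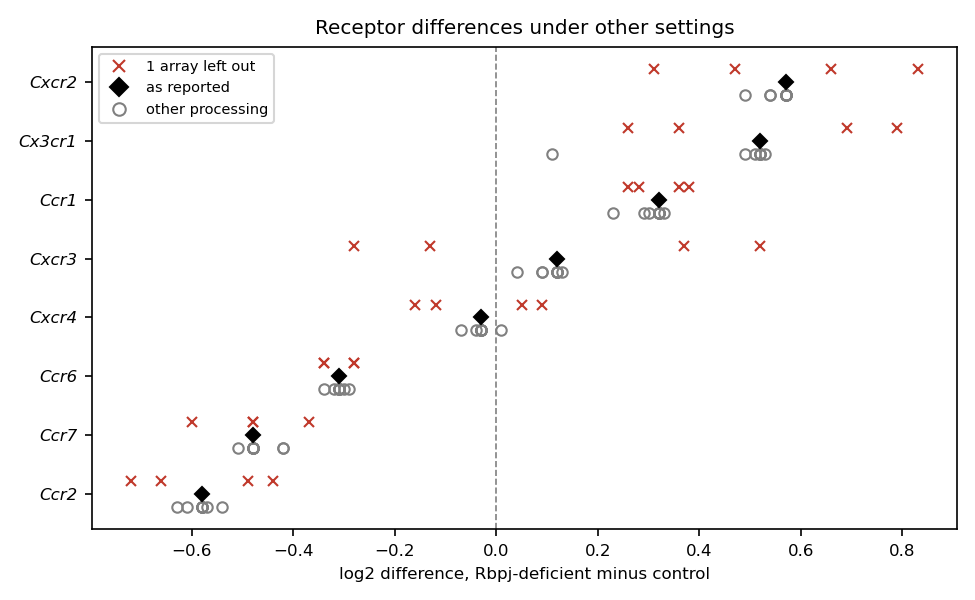
Log2 difference between Rbpj-deficient and control cells for each receptor as reported (diamonds), with 1 array left out (crosses) and under the other processing alternatives (circles). Ccr1, Ccr2, Ccr6, Ccr7 and Cxcr2 keep their sign at every point. The brighter probe of Cx3cr1 lies between 0.11 and 0.79. Its other probe, at -0.74 and not well above background on any array, is not drawn. Cxcr3 and Cxcr4 lie on both sides of 0.

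The other chemokine receptors were mostly not measurable. Of 16 further receptors on the array, 6 were tested and 10 were not bright enough, among them Ccr3, Ccr4 and Xcr1, the receptor of cross-presenting dendritic cells. None of the 6 passed. One of them, Cxcr5, a receptor of B cells, entered the test through the Rbpj-deficient arrays alone (log2 difference 0.23). The median of the 6 was 0.04, but -0.14 when all 4 arrays had to be well above background and -0.13 with no filter on dim probes, so no direction is read from it. The smallest p was that of Cxcr6, a receptor of tissue T cells, which read -4.46 and -4.49 in Rbpj-deficient cells and -4.65 and -4.93 in control cells (log2 difference 0.31, adjusted p = 0.201).

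Of 22 ligands of the 8 receptors, 21 had a named probe and 16 were tested, of which 2 fell, none rose and 14 did not pass. Both that fell are ligands of Ccr1. Ccl5 read 5.75 and 5.73 in Rbpj-deficient cells and 6.60 and 6.58 in control cells (log2 change -0.85, limma adjusted p = 0.0322). Ccl9 read 5.0 and 5.16 in Rbpj-deficient cells and 5.91 and 5.94 in control cells (log2 change -0.84, adjusted p = 0.0379). With any 1 array left out Ccl5 stood at -0.86 to -0.84 and Ccl9 at -0.92 to -0.76. Neither passed in those fits, where almost no gene does. Ccl9 did not pass under quantile normalisation (-0.77, limma adjusted p = 0.0552). Of the other Ccr1 ligands, Ccl6 stood at -0.39, Ccl7 at -0.31 and Ccl3 at -0.25. Ccl2, the main ligand of Ccr2, stood at -0.37 (adjusted p = 0.0657), and Ccl8 and Ccl12, listed with Ccr2 as well, at 0.45 and -0.05. Of the Cxcr2 ligands, Cxcl2 and Ppbp each stood at 0.38, Cxcl3 at 0.35 and Cxcl1 at -0.01. Of the Ccr7 ligands, Ccl19 stood at -0.06 and Ccl21b, whose near-identical copies a probe may not separate, at -0.08. Cxcl10, a ligand of Cxcr3, stood at 0.09 and Cx3cl1, which is fractalkine, at -0.02. Ccl20 and Cxcl12, the ligands of Ccr6 and Cxcr4, were not well above background on any array. The median of the 16 was -0.05, beside -0.01 over all genes.

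Among 23 genes through which these receptors signal or are silenced, all were tested and 1 passed, against 1.88% of all genes tested. Grk5, a kinase that marks active receptors for uptake, read -0.44 and -0.39 in Rbpj-deficient cells and 0.18 and 0.28 in control cells, and fell by 0.64 on the log2 scale (limma adjusted p = 0.0434). It stood at -0.69 to -0.59 in the fits without 1 array, where it did not pass and almost no gene does. The other 22 did not pass, and the median of the 23 was 0.03, beside -0.01 over all genes. The related kinases Grk2 and Grk3 stood at 0.11 and 0.34, and the arrestins Arrb1 and Arrb2 at -0.02 and 0.12. Pik3cg, the lipid kinase that answers to receptor G proteins, stood at 0.36 (adjusted p = 0.0640). Rgs1 and Rgs18, which switch the G proteins off, stood at 0.26 and 0.34.

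**Figure D4:**
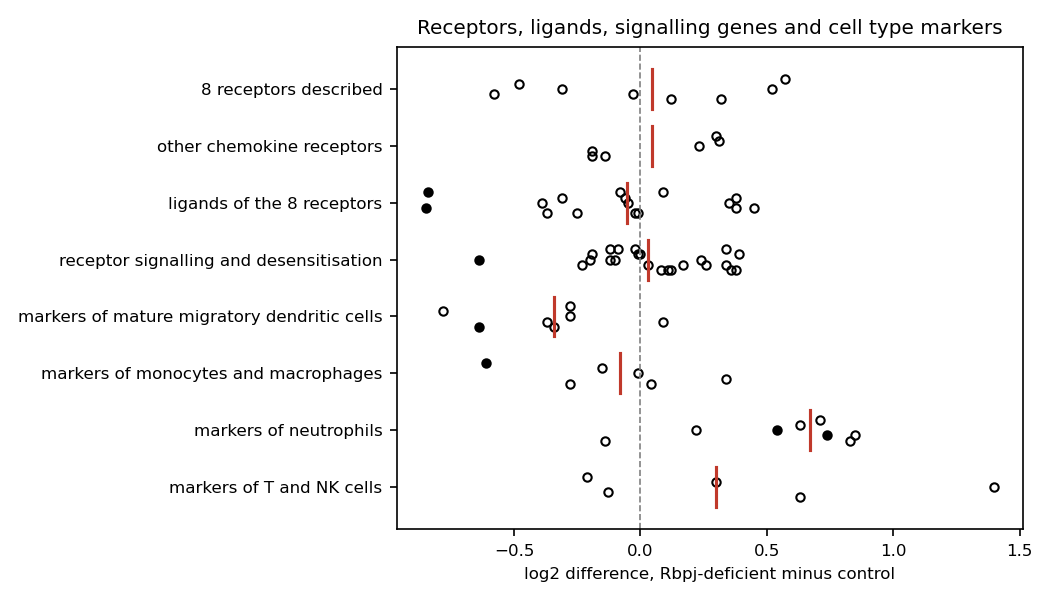
Log2 difference between Rbpj-deficient and control cells for the 8 receptors and for the tested genes of 7 other lists, each point a gene and each red line the median of a list. Filled points passed the limma threshold, which were Ccl5 and Ccl9 among ligands, Grk5 among signalling genes, Il4i1, Fcgr1, Ngp and Mpo among markers, and none among receptors.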

How the data were processed

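RNA was labelled from 150 ng per sample with Cy3 and hybridised to 1-colour Agilent mouse arrays, per the labels' protocols. Spot intensity was read by the authors with Agilent Feature Extraction 10.7.1.1, per the file headers, which list background subtraction and detrending. The spot flags are those of the same software. All 4 arrays lay on 1 slide scanned once. How the authors made the deposited table of log2 values is not given in the sources used here. Its values, centred per probe, followed the scanner signal in the same direction (Pearson r 0.99995 to 0.99996 over 39426 probes, column medians of -0.0340 and 0.0201 for Rbpj-deficient cells and 0.0531 and -0.0305 for control cells), and it was an alternative only.

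Flagged outlier spots (127 to 176 an array) were left out, none of which touched a receptor probe, and 0 spots were saturated. Log2 signal minus the 75th percentile of each array was averaged over spots of a probe. The filter kept probes flagged well above background on every array of 1 genotype or of both, and a gene took its brightest probe. Genotypes were compared with limma 3.58.1 in R 4.3.3 (lmFit, eBayes, Benjamini-Hochberg over 17974 genes, threshold 0.05). SE and 95% intervals are moderated and SD is over 2 arrays, whose number limits the precision. Python 3.11.15 drew the figures. The fit was tested on data simulated from its own fitted spread. It recovered 71.8% of log2 changes of 1 and 95.8% of log2 changes of 2, with 4.12% of calls false. Changes as small as those of the receptors were not simulated.

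Probes were named through their accessions in RefSeq annotation of GRCm38.p6, used for names and gene order, as the headers give mm9. Of 39429 probes 26055 had 1 symbol, 0 several and 13374 none. The members, lists and tests were chosen with earlier results of these data known. The shorter promoter core was added after the longer motif had been searched. In each list, genes past the threshold are named, or else the gene with the smallest p, and other values given were chosen after they were seen. Some results that the lists cover are not reported here. Normexp (offset 50) used median spot signals. Fits without 1 array kept the same genes, and a lone array was assumed to vary like the others.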

Additional observations from a re-analysis of the deposited data

How the results depend on the processing

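Each result was recomputed under 13 alternatives (12 for Cx3cr1, which is not tested when all 4 arrays must be well above background). Ccr1, Ccr2, Ccr6, Ccr7 and Cxcr2 kept their sign in each. Cx3cr1 ranged from 0.11 to 0.79 on its brighter probe, which was dim. Its other probe, not well above background on any array, stood at -0.74. No direction is read for Cx3cr1. The number of genes called by limma, 338 as reported, was 886 with the normexp background and 1547 with the robust variance prior that follows signal. It was 0 with no filter on dim probes (3655 at an unadjusted p under 0.05) and 0 to 1 without 1 array (2976 to 3506). The receptors past the threshold numbered 1 with normexp (Ccr2, -0.63) and 2 with the robust prior (Ccr2, -0.58, and Ccr7, -0.48). Cxcr4 was 0.01 with normexp. Without 1 array Cxcr3 ranged from -0.28 to 0.52, Cxcr4 from -0.16 to 0.09 and Rbpj from -1.29 to -1.21. Rbpj was -1.25 with no filter on dim probes but did not pass (adjusted p = 0.260). Ligands past the threshold, 2 as reported, numbered 1 under quantile normalisation, 0 with no filter, 5 with the robust prior and 0 without any 1 array. Signalling genes, 1 as reported, numbered 3 with normexp, 0 with no filter, 5 with the robust prior and 0 without any 1 array. With the replicate number as a block limma called 0 genes (3677 at an unadjusted p under 0.05), 0 ligands and 0 signalling genes, with Rbpj at -1.25 (adjusted p = 0.101). Arrays of the same number did not deviate together over all genes (r = -0.0472 over 17973 genes). With 2 arrays a genotype this is 1 comparison, so it cannot decide whether the numbers pair the samples. Neutrophil markers past the threshold, 2 as reported, numbered 6 with normexp, 6 with the robust prior and 1 under median scaling. Those of mature migratory dendritic cells, 1 as reported, numbered 3 with the robust prior and 2 with normexp, median scaling, the stricter filter and the authors' value table. Those of monocytes and macrophages, 1 as reported, numbered 2 with normexp and with the robust prior, and those of dendritic cells, 0 as reported, 1 with the robust prior. In these 4 lists 0 passed with no filter, with the block and without any 1 array. Fits without 1 array leave 1 array in a genotype and call almost no gene, so not passing in them says little of a single gene or list. The fit with no filter tested 32496 genes. Other causes were not tested. Dim signal limits Cxcr3 and Cx3cr1.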

Other observations

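Several of the receptors lie on chromosome 9. In the gene order of GRCm38.p6, Ccr1, Ccr1l1, Ccr3 and Ccr2 follow one another, with Cxcr6 and Xcr1 before them. The tested genes named here went both ways in Rbpj-deficient relative to control cells, and none passed the test. In gene order the log2 differences were 0.31 for Cxcr6, 0.32 for Ccr1, 0.24 for Ccr1l1 and -0.58 for Ccr2. Xcr1 and Ccr3 were not bright enough to be tested. Neighbours were chosen by position.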
